A study of Saccharomyces cerevisiae with 12 samples.

Results

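The 9 general stress response genes described here were the transcription factor genes MSN2 and MSN4, and 7 well known stress-induced genes, CTT1, HSP12, HSP26, HSP42, DDR2, SOL4 and SPG4. They were chosen by name, with earlier results of these data known. The platform annotation gave each of them a single probe set, so 9 of the 5449 measured genes are described and none was missing. Their signals came from 12 Affymetrix yeast arrays in 4 groups of 3, all of Saccharomyces cerevisiae in the haploid BY4741 background, in which LEU2, MET17 and URA3 are deleted and HIS3 partly so. The groups were a pat1 mutant grown for 2 h with 30 µg/ml Congo Red, the pat1 mutant grown for 2 h without drug, wild type grown for 2 h with 30 µg/ml Congo Red, and wild type grown for 2 h without drug. Each strain gave 3 biological samples, and each sample gave an array with and an array without drug. The labels do not say how the pat1 mutation was made or whether the mutant was a single clone. Pat1 is a decay factor that binds deadenylated mRNA and promotes its decapping, and Congo Red stresses the cell wall by attaching to its polysaccharide chains. The comparisons asked how the mutant differs from wild type and how each strain responds to the dye.

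Msn2 and Msn4 are related zinc finger activators that bind the stress response element in promoters. In well fed cells protein kinase A keeps them in the cytoplasm, and many stresses or a lack of glucose let them enter the nucleus and switch on a broad set of protective genes. Among their well known targets, CTT1 encodes the cytosolic catalase T, HSP12 a small protein that protects membranes, and HSP26 and HSP42 small heat shock proteins that hold unfolding proteins and that also answer to the heat shock factor Hsf1. DDR2 encodes a small protein induced by many stresses, SOL4 a 6-phosphogluconolactonase of the pentose phosphate pathway, and SPG4 a protein of stationary phase cells. Their mRNA levels rise as cultures run out of glucose as well as under acute stress. The control of Msn2 and Msn4 lies largely in where the proteins are, which arrays do not measure.

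The arrays matched their strain labels. PAT1 gave log2 signals of 2.95 to 3.94 on the 6 pat1 arrays and of 10.50 to 10.93 on the 6 wild type arrays, a difference of -7.26 ± 0.25 without drug (SE, limma adjusted p = 2.69e-08). Array medians over all genes lay between 9.53 and 9.70, the highest being the treated array of pat1 sample 3. URA3, deleted in this background, read 2.94 to 3.27 on 10 arrays, but 6.76 on the untreated array of pat1 sample 1 and 7.71 on the treated array of wild type sample 2. The deposited table has no detection calls, so no lower limit of measurement is known for a low signal.

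Of the factor genes, MSN2 hardly varied. It read 9.45, 9.80 and 9.83 in pat1 with Congo Red (samples 1, 2 and 3) and 9.71, 9.94 and 9.52 in pat1 without drug. In wild type it read 10.02, 9.81 and 9.76 with Congo Red and 9.99, 9.79 and 9.87 without drug. The groups overlapped in every comparison. The largest group difference of MSN2 was -0.17 ± 0.14 (SE, limma adjusted p = 0.498) between pat1 and wild type with Congo Red, and its 95% interval of -0.48 to 0.14 bounds the strain difference to well under 2-fold either way.

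MSN4 varied more, and it was the factor gene with the higher mean in the mutant. It read 8.84, 8.70 and 9.89 in pat1 with Congo Red and 8.62, 8.83 and 9.86 in pat1 without drug. It read 8.27, 8.95 and 8.65 in wild type with Congo Red and 7.80, 8.76 and 7.76 in wild type without drug. Sample 3 of pat1 stood above all other arrays, and sample 2 of wild type lay among the pat1 values. Without drug MSN4 differed between pat1 and wild type by 0.99 ± 0.40 (1.99-fold, 95% interval 0.13 to 1.86, limma adjusted p = 0.152), which did not pass over all genes.

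**Figure D1:**
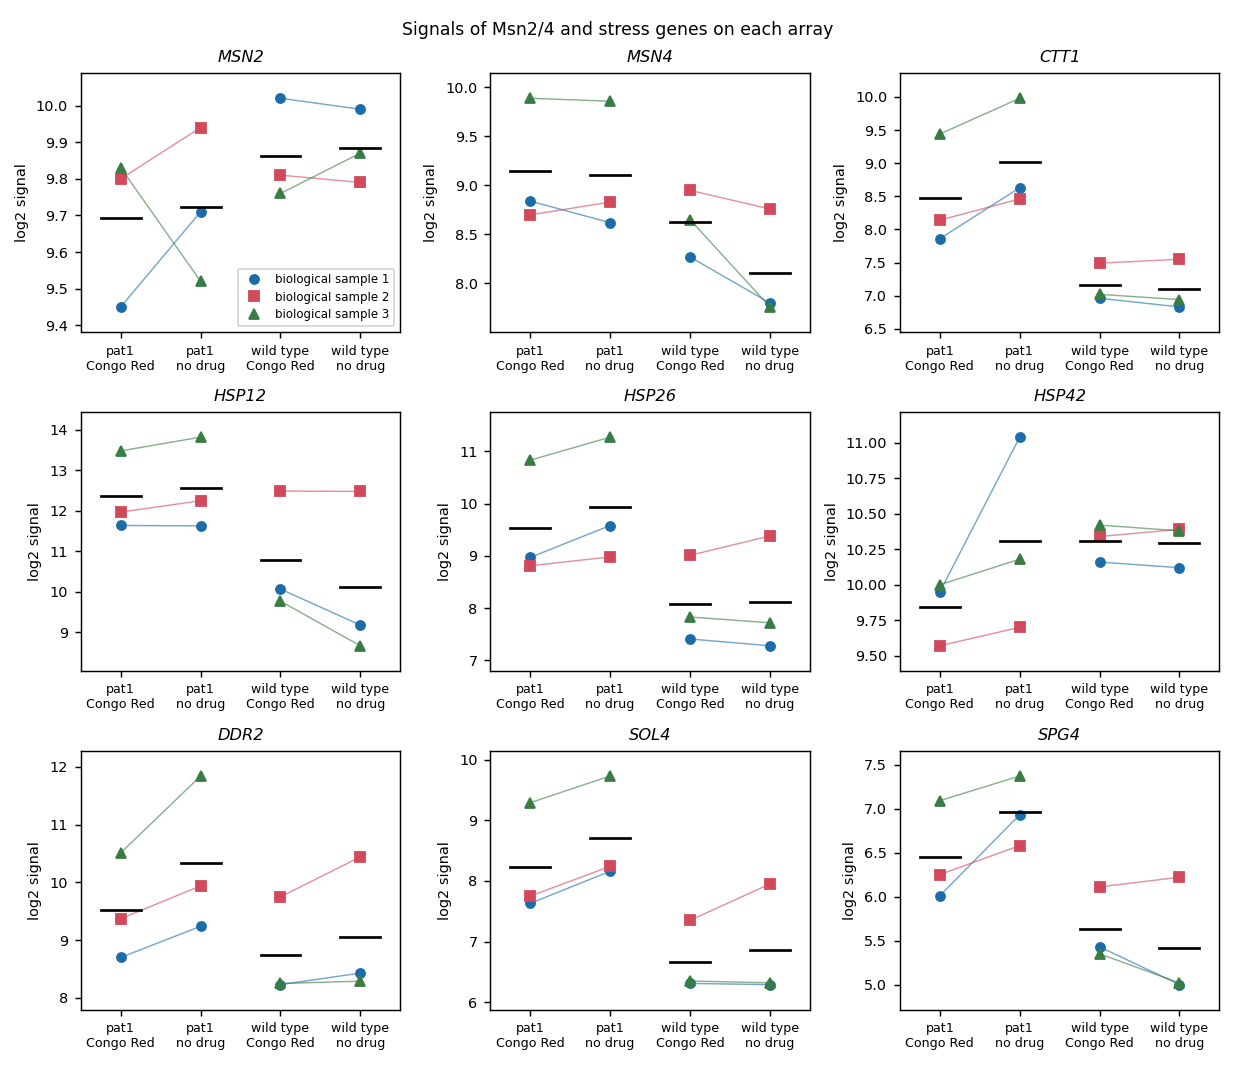
Log2 signals (y axes, scaled per gene) of the 9 genes on the 12 arrays, by group; points are arrays, colour and shape give the biological sample, thin lines join the arrays of 1 sample and black bars are group means. In MSN4 and 6 of the 7 targets, pat1 sample 3 and wild type sample 2 are the highest arrays of their strain with and without drug; MSN2 and HSP42 show neither.

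CTT1 was the member that separated the strains completely. It read 7.86, 8.14 and 9.44 in pat1 with Congo Red and 8.63, 8.46 and 9.98 in pat1 without drug. It read 6.96, 7.49 and 7.02 in wild type with Congo Red and 6.83, 7.55 and 6.94 in wild type without drug. Every pat1 array lay above every wild type array, the nearest values being 7.86 in pat1 and 7.55 in wild type. Such a complete separation upwards occurred in 325 of 5449 genes (5.96%), and CTT1 was the only member with it.

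HSP12 had the widest range of the members. It read 11.64, 11.97 and 13.48 in pat1 with Congo Red and 11.63, 12.25 and 13.82 in pat1 without drug. It read 10.07, 12.49 and 9.77 in wild type with Congo Red and 9.18, 12.48 and 8.67 in wild type without drug. Wild type sample 2 thus lay inside the pat1 range on both of its arrays, while wild type samples 1 and 3 lay below every pat1 array. Within untreated wild type alone, HSP12 spanned 3.80 log2 units, or 14-fold.

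The small heat shock protein genes HSP26 and HSP42 had different patterns. HSP26 read 8.97, 8.81 and 10.83 in pat1 with Congo Red and 9.58, 8.98 and 11.27 in pat1 without drug, against 7.41, 9.01 and 7.83 in wild type with Congo Red and 7.28, 9.38 and 7.72 in wild type without drug. HSP42 read 9.95, 9.57 and 10 in pat1 with Congo Red and 11.04, 9.70 and 10.18 in pat1 without drug, against 10.16, 10.34 and 10.42 in wild type with Congo Red and 10.12, 10.39 and 10.38 in wild type without drug. HSP26 was high in wild type sample 2 and in pat1 sample 3, like HSP12. HSP42 lay between 9.57 and 10.42 on 11 arrays and was highest, at 11.04, on the untreated array of pat1 sample 1, which is also the pat1 array with URA3 signal.

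DDR2, SOL4 and SPG4 followed the pattern of HSP12 and HSP26. DDR2 read 8.70, 9.37 and 10.51 in pat1 with Congo Red and 9.24, 9.94 and 11.84 in pat1 without drug, against 8.23, 9.75 and 8.25 in wild type with Congo Red and 8.43, 10.44 and 8.29 in wild type without drug. SOL4 read 7.63, 7.75 and 9.29 in pat1 with Congo Red and 8.16, 8.24 and 9.73 in pat1 without drug, against 6.31, 7.35 and 6.35 in wild type with Congo Red and 6.29, 7.95 and 6.32 in wild type without drug. Within each condition every pat1 array of SOL4 lay above every wild type array, whereas DDR2 of wild type sample 2 exceeded pat1 samples 1 and 2 in both conditions. SPG4 read 6.01, 6.25 and 7.09 in pat1 with Congo Red and 6.93, 6.58 and 7.37 in pat1 without drug, against 5.43, 6.11 and 5.35 in wild type with Congo Red and 5, 6.22 and 5.02 in wild type without drug. The SPG4 groups did not overlap without drug and overlapped slightly with Congo Red.

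Without drug, 6 of the 7 targets, all but HSP42, had some of the most positive strain differences of the 5449 genes, and 2 of them passed. Ranked from the most positive difference down, HSP12 ranked 1, CTT1 ranked 3, SOL4 ranked 4, HSP26 ranked 5, SPG4 ranked 17 and DDR2 ranked 32. Since earlier results of these data were known when the members were chosen, these ranks are a description. CTT1 rose 3.77-fold in pat1 relative to wild type (log2 1.92 ± 0.44, SE, n = 3 arrays per group, limma adjusted p = 0.0317), and SPG4 rose 2.92-fold (1.54 ± 0.37, limma adjusted p = 0.0375). They were the 2 members, of 9, that passed, where 6.44% of all genes passed in either direction and 3.51% were higher. The fit took its spread from all 12 arrays as if independent, although they are pairs from 6 biological samples, so these p-values can be too small. With only the untreated groups fitted, where each sample gives 1 array, 0 members passed, and 24 of all genes did.

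The other 4 targets that ranked high did not pass over all genes, and their SEs were larger. SOL4 differed by 1.86 ± 0.58 (3.62-fold, limma adjusted p = 0.0793), with groups that did not overlap, as in 12% of all genes in this direction. HSP12 differed by 2.46 ± 1.01 (5.5-fold, 95% interval 0.25 to 4.67, limma adjusted p = 0.163), HSP26 by 1.82 ± 0.73 (3.53-fold, limma adjusted p = 0.157) and DDR2 by 1.29 ± 0.76 (2.44-fold, limma adjusted p = 0.33). HSP42 differed by 0.01 ± 0.27 (95% interval -0.58 to 0.59), but by -0.36 ± 0.19 without the arrays with URA3 signal. The 7 targets had a median difference of 1.82, against -0.014 over all genes. With the biological sample as a random replicate block, SOL4 also rose (limma adjusted p = 0.0418), making 3 members past the threshold in that fit, in which 5.27% of all genes did. That fit gives all genes a single correlation of 0.631, while 97.8% of the within-group variation of SOL4 lay between biological samples. Its SE for SOL4, 0.47, can therefore be too small for a strain difference.

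Both calls depended on single arrays. Without the untreated array of wild type sample 1, wild type sample 3, pat1 sample 1 or pat1 sample 3, the limma adjusted p of CTT1 was 0.106, 0.0998, 0.054 and 0.0792, and that of SPG4 was 0.125, 0.128, 0.0795 and 0.103. SPG4 also missed the threshold without the treated array of wild type sample 1 (adjusted p = 0.0565) or of pat1 sample 2 (adjusted p = 0.0504). Over these and all other single arrays left out, the difference stayed between 1.44 and 2.20 for CTT1 and between 1.34 and 1.95 for SPG4. Without both arrays with URA3 signal the limma adjusted p was 0.071 for CTT1 and 0.0889 for SPG4, with differences of 2.11 and 1.56.

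**Figure D2:**
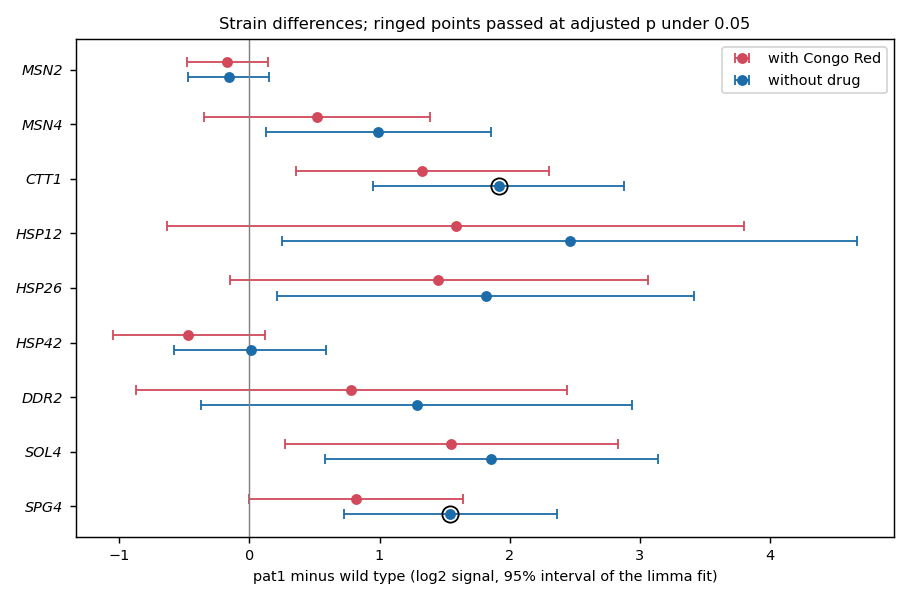
Log2 difference of pat1 minus wild type (x axis) for each member, with Congo Red and without drug; bars are 95% intervals of the limma fit on 3 arrays per group and rings mark members past the threshold. CTT1 and SPG4 without drug carry the rings; the intervals of HSP12, HSP26 and DDR2 are the widest.

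With Congo Red the strain differences of the targets were of the same sign except for HSP42, and none of the 9 members passed, where 6.44% of all genes did. At an unadjusted limma p under 0.05, 3 members were found, CTT1, SOL4 and SPG4, where 1292 of all 5449 genes were. CTT1 differed by 1.33 ± 0.44 (2.51-fold, limma adjusted p = 0.0972, and adjusted p = 0.0499 with the random replicate block, in which 5.32% of all genes passed). The limit given above for that block holds here too. SOL4 differed by 1.55 ± 0.58 (2.93-fold, limma adjusted p = 0.135). CTT1 and SOL4 had pat1 arrays all above the wild type arrays, as in 18.2% of all genes. HSP12 differed by 1.59 ± 1.01, HSP26 by 1.45 ± 0.73, SPG4 by 0.82 ± 0.37, DDR2 by 0.78 ± 0.76 and MSN4 by 0.52 ± 0.40, with limma adjusted p of 0.209 to 0.572. HSP42 had the opposite sign, at -0.47 ± 0.27 (limma adjusted p = 0.323), and its pat1 arrays all lay below the wild type arrays, as in 11.5% of all genes. The 7 targets had a median of 1.33, against 0.044 over all genes. Without pat1 sample 3 that median was 0.807, with DDR2 at 0.29 and MSN4 at 0.15, and without wild type sample 2 it was 1.49. The comparisons with and without drug use arrays of the same biological samples, so they do not repeat each other independently.

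Congo Red gave few responses among the members in wild type. None of the 9 passed with group means alone, where 2.68% of all genes passed, and none had an unadjusted limma p under 0.05. Taken within biological samples, HSP12 differed by 0.90, 0.01 and 1.09 in samples 1, 2 and 3 and MSN4 by 0.47, 0.19 and 0.89. With each biological sample as its own block (the replicate block), in which 14.1% of all genes passed and 8.22% were higher, HSP12 rose by 0.67 ± 0.18 (95% interval 0.26 to 1.07, limma adjusted p = 0.0405) and MSN4 rose by 0.52 ± 0.13 (0.23 to 0.80, limma adjusted p = 0.0301). Neither passed with the random replicate block, in which 15.2% of all genes did, at limma adjusted p of 0.406 for HSP12 and 0.114 for MSN4. That fit gives all genes a single correlation, while 97.9% of the within-group variation of HSP12 and 94% of that of MSN4 lay between samples. Its SEs for the responses of HSP12 and MSN4, 0.49 and 0.20, can therefore be too large, so it does not settle them. Both were above 0 in all 3 samples, as were 24.7% of all genes, and for both the smallest response was in sample 2, whose untreated level was already the highest of the strain. Without the arrays with URA3 signal, which removes the treated but not the untreated array of that sample, the unpaired difference of HSP12 was -0.19.

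The other targets did not pass in wild type in either fit. CTT1 differed within samples by 0.13, -0.07 and 0.08, and its blocked 95% interval was -0.17 to 0.26. HSP26 had a blocked interval of -0.31 to 0.23, HSP42 of -0.36 to 0.38, SOL4 of -0.45 to 0.09 and SPG4 of -0.11 to 0.54, so responses of 2-fold lay outside all of them. DDR2 was below 0 in all 3 samples, at -0.19, -0.69 and -0.04 (blocked limma adjusted p = 0.266), as were 32.8% of all genes. MSN2 had a blocked interval of -0.27 to 0.22.

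In pat1 the targets read lower with Congo Red than without it. CTT1 differed within samples by -0.77, -0.32 and -0.54, DDR2 by -0.54, -0.56 and -1.33, and SOL4 by -0.54, -0.49 and -0.44. HSP26, HSP42 and SPG4 were likewise below 0 in every pat1 sample, which made 6 of 9 members, against 11% of all genes. HSP12 was the exception among the targets, at 0.01, -0.28 and -0.34. HSP42 differed by -1.09 in sample 1, from the untreated array with URA3 signal, and by -0.13 and -0.18 in samples 2 and 3. The sample 1 values of the other members use that array too. Sample 1 also gave the largest fall of CTT1, SOL4, HSP26 (-0.61) and SPG4 (-0.93), but not of DDR2 or HSP12. The replicate block fits given next include that array.

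None of the 9 members passed in pat1 with group means alone, where 0.661% of all genes passed, and none had an unadjusted limma p under 0.05. With the replicate block, in which 2.31% of all genes passed and 0.349% were lower, CTT1 fell by 0.54 ± 0.10 (limma adjusted p = 0.024) and DDR2 fell by 0.81 ± 0.17 (limma adjusted p = 0.0454). Neither passed with the random replicate block, in which 3.08% of all genes did, at limma adjusted p of 0.211 for CTT1 and 0.283 for DDR2. Its SEs for CTT1 and DDR2, 0.21 and 0.37, can again be too large, as 98.1% and 96.7% of their within-group variation lay between samples. With the replicate block SOL4 was at -0.49 ± 0.12 (limma adjusted p = 0.0817), SPG4 at -0.51 ± 0.14, HSP26 at -0.41 ± 0.12, HSP42 at -0.47 ± 0.16 and HSP12 at -0.21 ± 0.18, with limma adjusted p of 0.122 to 0.59 for the last 4. The 7 targets had a median of -0.487, against 0.041 over all genes. MSN4 was at 0.04 ± 0.13 and MSN2 at -0.03 ± 0.11 in the blocked fit.

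**Figure D3:**
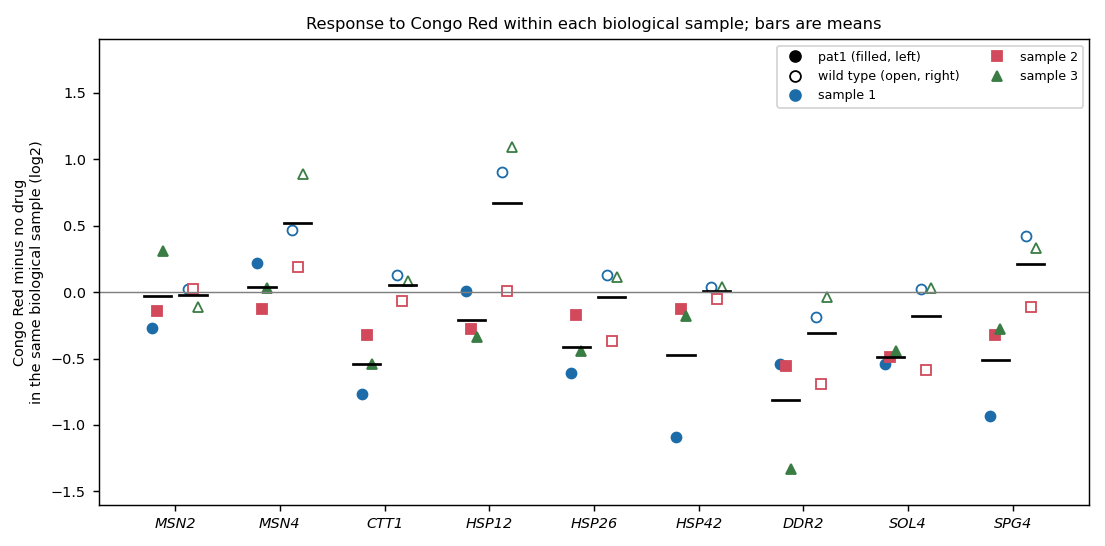
Response to Congo Red within each biological sample (y axis, log2 signal with drug minus without) for the 9 members; filled points on the left are pat1, open points on the right wild type, and bars are means of 3 samples. In pat1, 6 of 9 members lie below 0 in every sample; in wild type, MSN4 and HSP12 lie above 0 in every sample.

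The fitted responses differed between pat1 and wild type by -0.87 for HSP12, -0.72 for SPG4, -0.59 for CTT1, -0.50 for DDR2, -0.48 for HSP42, -0.47 for MSN4, -0.36 for HSP26, -0.31 for SOL4 and -0.01 for MSN2. No member passed the limma test of that difference (lowest adjusted p = 1), and none had an unadjusted p under 0.05. Over all genes 0% passed and 130 of 5449 had an unadjusted p under 0.05. With the replicate block the adjusted p of the members ran from 0.21 for CTT1 to 0.985 for MSN2, where 0.0551% of all genes passed. Since the strain difference without drug, the strain difference with drug and both drug responses share arrays, these values are not independent of those given above.

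Within groups, most of the variation of each member lay between biological samples, a share that leaves out the differences between strains. The pooled SD between arrays of a group was 1.48 for HSP12, 1.10 for DDR2, 1.07 for HSP26, 0.85 for SOL4, 0.64 for CTT1, 0.57 for MSN4, 0.54 for SPG4, 0.37 for HSP42 and 0.17 for MSN2, against a median of 0.19 over all genes. By this SD HSP12 ranked 5 of 5449 genes, DDR2 ranked 14, HSP26 ranked 17 and SOL4 ranked 31, while MSN2 was more even than most genes (42.8% of genes had a smaller SD). Arrays of the same sample agreed far better in most members. For CTT1, HSP12, HSP26, SOL4 and DDR2, 96.7 to 98.6% of the variation within groups lay between biological samples and was shared by the arrays with and without drug, against a median of 81.6% over all genes. That share was 94% for MSN4, 90.8% for SPG4, 73.4% for HSP42 and 58.7% for MSN2. The SD of the within-sample response was 0.18 for CTT1, 0.22 for MSN2, 0.25 for HSP26 and SOL4, 0.28 for MSN4, 0.32 for SPG4, 0.39 for HSP42, 0.40 for DDR2 and 0.43 for HSP12. Over all genes its median was 0.16, and 98% of genes had a smaller one than HSP12, 97.1% than DDR2 and 96.6% than HSP42.

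The same samples were high each time. MSN4 and 6 of the 7 targets, all but HSP42, were highest in wild type sample 2 both with and without drug, as were 22.8% of all genes. The same 7 members were highest in pat1 sample 3 both with and without drug, as were 25.8% of all genes, and 11.3% of genes did both. With wild type sample 2 left out, the strain difference without drug was 3.64 for HSP12, 2.14 for CTT1 and 1.98 for DDR2. With pat1 sample 3 left out it was 1.83 for HSP12, 1.44 for CTT1 and 0.53 for DDR2. With both left out it was 3.02 for HSP12, 1.66 for CTT1 and 1.23 for DDR2. The members past the threshold without drug then numbered 3 without wild type sample 2 (3.06% of all genes), 1 without pat1 sample 3 (1.96%) and 6 without both (3.1%), and with Congo Red 4 without both (2.07%). These samples stand out by the very genes described, so the smaller spread without them follows from the choice, and these counts are a description. The labels describe exponentially growing cells and give the density at which the 2 h began, not the density of each culture at harvest.

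**Figure D4:**
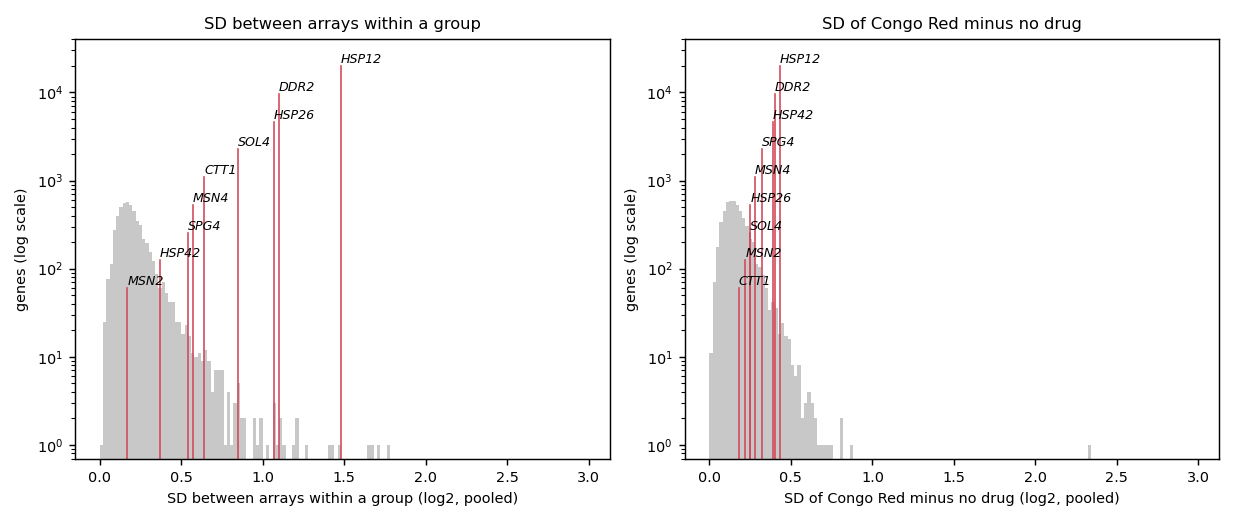
Histograms over 5449 genes (y axes, log scale) of the pooled SD between arrays of a group (left) and of the pooled SD of the within-sample response to Congo Red (right), both in log2 units; red lines mark the members, their heights chosen for legibility. HSP12, DDR2, HSP26 and SOL4 lie in the far right tail on the left, and all members lie below 0.5 on the right.

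Across the 12 arrays, 6 of the targets varied together. Pearson's r between any 2 of CTT1, HSP12, HSP26, DDR2, SOL4 and SPG4 was 0.84 to 0.98, and 0.77 to 0.97 after the group means were taken off. MSN4 tracked the same 6 at 0.83 to 0.92, and at 0.86 to 0.97 without group means. HSP42 gave -0.19 to 0.00 with the other 8 members and MSN2 gave -0.57 to -0.10. These are descriptions over 12 arrays that come in pairs from 6 biological samples and differ by strain, so few independent points lie behind each r.

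Of the genes that are not members, those whose values most resembled the mean of the 7 targets over the 12 arrays were PIC2 (Pearson's r = 0.980), EGO4 (0.975), RTC2 (0.973), GAD1 (0.972), GPH1 (0.971), MCR1 (0.970), DCS2 (0.968), ATP18 (0.967), PGM2 (0.964) and SIP18 (0.961). Among them PIC2 encodes a mitochondrial carrier, GAD1 glutamate decarboxylase, GPH1 glycogen phosphorylase and PGM2 phosphoglucomutase. None of the 10 passed between the strains without drug, where their differences were 0.45 for ATP18 to 1.49 for GPH1. MSN4 was most like NQM1 (0.975), a transaldolase gene, PAI3 (0.971), an inhibitor of the vacuolar protease A, GOR1 (0.966), YOR289W (0.963) and TFS1 (0.962). MSN2 was most like ARC1 (0.923), a cofactor of tRNA synthetases, RPL17A (0.909), a ribosomal protein gene, LCB4 (0.884), NAB2 (0.868) and MXR1 (0.864).

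A list of 55 other general stress genes, written from general knowledge but with earlier results of these data known, had mostly positive strain differences. Their median was smaller than that of the targets. In pat1 relative to wild type without drug 7 rose, 1 fell and 47 did not pass, with a median of 0.553 and 47 values above 0, where 6.44% of all genes passed and 3.51% were higher. FMP45, a membrane protein gene of the eisosome family, rose by 1.73 ± 0.43, GRE1, a hydrophilin gene, by 1.33 ± 0.29 and the glutathione peroxidase gene GPX1 by 1.27 ± 0.27, with limma adjusted p of 0.0407, 0.0238 and 0.0229. The 1 that fell was DDR48 (-1.02 ± 0.21, limma adjusted p = 0.022), a gene induced by DNA damage and heat. With Congo Red 3 rose, 3 fell and 49 did not pass (median 0.254), where again 6.44% of all genes passed. GPX1 again rose, by 1.16, GRE1 rose by 1.15, and DDR48 fell by 0.84 (limma adjusted p of 0.0307, 0.0379 and 0.0385). Without drug the counts were 7 higher and 0 lower without wild type sample 2, 2 higher and 1 lower without pat1 sample 3, and 19 higher and 1 lower without both. Of all genes 3.06%, 1.96% and 3.1% passed in these settings. With Congo Red the counts were 1 and 0, 1 and 1, and 4 and 1, where 171, 133 and 113 of all genes passed. MSN4 and the targets other than HSP42 had an r of 0.87 to 0.97 with the mean of this list. The limit given above for leaving out these samples therefore holds here too, and these counts are a description.

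In the wild type response to Congo Red 3 of the 55 rose and none fell, where 2.68% of all genes passed. The median of the 55 was 0.226, against -0.029 over all genes. PRB1, the vacuolar protease B, rose by 1.29 ± 0.12, NTH1, the neutral trehalase, by 0.79 ± 0.15 and SPG5, a stationary phase gene, by 0.48 ± 0.11, with limma adjusted p of 0.000113, 0.0125 and 0.0483. With the replicate block 16 rose and 1 fell, where 14.1% of all genes passed and 8.22% were higher. In pat1 none of the 55 passed (median -0.081 against 0.041 over all genes), and with the block 1 rose and 3 fell, where 2.31% of all genes passed. The largest values were those of CYC7, an isoform of cytochrome c (-1.03, blocked limma adjusted p = 0.0365), and of the membrane protein gene HSP30 (-1.0, blocked limma adjusted p = 0.157).

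The genes that control Msn2 and Msn4 passed about as often as all genes did between the strains. Of 25 measured, among them protein kinase A subunits, the Ras and cyclic AMP enzymes, the kinases Rim15, Yak1 and Snf1, the phosphatase proteins Psr1, Psr2 and Whi2, and the 14-3-3 proteins, 2 were lower in pat1 without drug and none was higher (median -0.099), where 6.44% of all genes passed. They were SCH9, a kinase downstream of TORC1, at -0.57 ± 0.15 (limma adjusted p = 0.0497) and MSN5, the exportin that carries Msn2 out of the nucleus, at -0.46 ± 0.11 (limma adjusted p = 0.0368). With Congo Red TPK3, a catalytic subunit of protein kinase A, rose by 0.69 ± 0.12 in pat1 (limma adjusted p = 0.0102) and SSN3, the kinase of the Mediator complex, fell by 0.48 ± 0.13 (limma adjusted p = 0.0497), where again 6.44% of all genes passed. Without drug both calls were lost without wild type sample 2 and without pat1 sample 3. With Congo Red the list had 1 higher and 0 lower without wild type sample 2, and 0 higher and 1 lower without pat1 sample 3. None of the 25 passed in response to Congo Red in either strain with group means alone. With the replicate block 1 rose and 1 fell in wild type, where 14.1% of all genes passed. The largest value was 0.72 for PDE1, a cyclic AMP phosphodiesterase, in wild type (limma adjusted p = 0.0595, and 0.00313 with the replicate block).

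Of 16 other stress transcription factor genes, USV1 alone passed between the strains without drug, at 1.21 ± 0.30 (limma adjusted p = 0.0401), and CIN5 alone with Congo Red, at 0.88 ± 0.21 (limma adjusted p = 0.035), both higher in pat1, where 6.44% of all genes passed in each comparison. No gene of this list passed without drug when wild type sample 2 was left out, or with Congo Red when either that sample or pat1 sample 3 was. COM2 rose by 0.84 ± 0.15 with Congo Red in wild type (limma adjusted p = 0.0113) and differed by 0.61 ± 0.15 in pat1 (limma adjusted p = 0.172, and 0.0058 with the replicate block). HSF1 did not pass in any comparison.

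The 22 measured Hsf1 chaperone genes were mostly lower in pat1, by amounts that did not pass. None passed in any comparison with group means alone. With the replicate block 1 rose with Congo Red in wild type, where 14.1% of all genes passed. With that block 1 fell in pat1, where 2.31% of all genes passed. Their medians between the strains were -0.201 without drug and -0.224 with Congo Red, and 17 and 18 of the 22 were below 0. HSP82, the inducible Hsp90, had the largest value with Congo Red, at -0.79 ± 0.25 (limma adjusted p = 0.0855), and BTN2 without drug, at -0.63 ± 0.51 (limma adjusted p = 0.484). Over the 12 arrays the mean of these chaperone genes had an r of -0.70 to -0.79 with CTT1, HSP12, HSP26, DDR2, SOL4 and SPG4, of -0.88 with MSN4 and of 0.55 with HSP42. Without group means the r with the chaperone mean was 0.38 for HSP42 and -0.73 for HSP26. With the mean of the 55 other general stress genes it was 0 for HSP42 and 0.95 for HSP26. HSP26, like HSP42 a target of Msn2/4 and Hsf1, thus tracked the general stress list, while HSP42 tracked neither list closely.

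**Figure D5:**
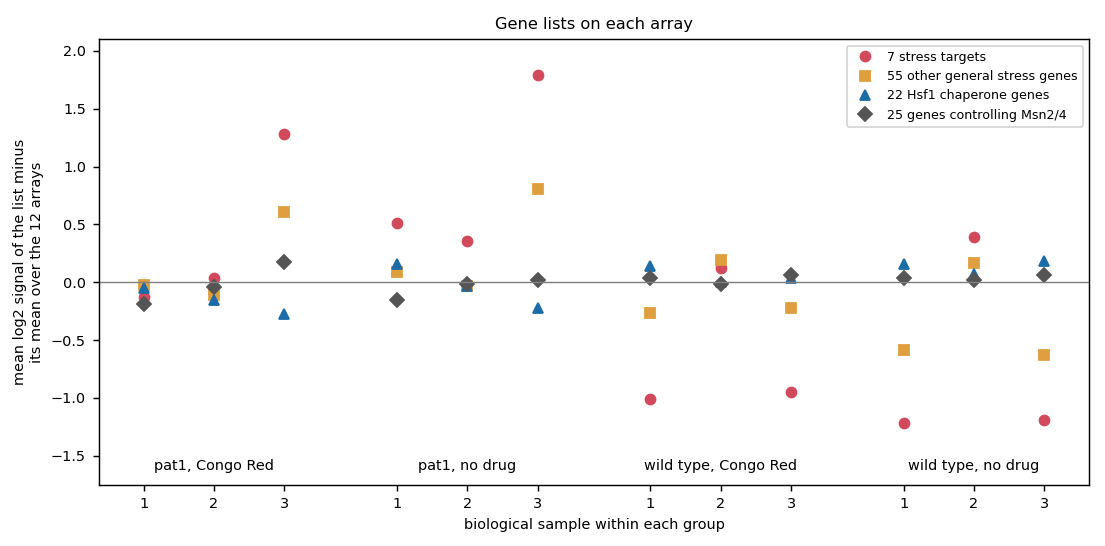
Mean log2 signal of 4 gene lists on each array, minus the list's mean over the 12 arrays (y axis), by group and biological sample. The 7 targets and the 55 other stress genes are highest in pat1 sample 3 with and without drug, and high in wild type sample 2 relative to samples 1 and 3, while the chaperone and control lists span less.

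The 4 measured paralogs of SOL4 and CTT1 are SOL1, SOL2, SOL3 and CTA1. Between the strains 1 of them passed without drug and none with Congo Red, where 6.44% of all genes passed in each comparison. SOL3, which encodes the main 6-phosphogluconolactonase, averaged 10.87 in pat1 and 11.46 in wild type without drug and fell by 0.59 ± 0.15 in pat1 (limma adjusted p = 0.0466), opposite in sign to SOL4 at 1.86. The call was lost without wild type sample 2 and without pat1 sample 3. SOL1 differed by 0.07 ± 0.15 and SOL2 by 0.37 ± 0.18 without drug (limma adjusted p of 0.801 and 0.227). CTA1, the peroxisomal catalase, averaged 5.40 in pat1 and 5.72 in wild type with Congo Red (limma adjusted p = 0.409), while CTT1 averaged 8.48 in pat1 and 7.16 in wild type. MSN2 and MSN4, which are paralogs of each other, had strain differences without drug of -0.16 ± 0.14 and 0.99 ± 0.40.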

How the data were processed

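RNA from 6 biological samples of yeast, each grown with and without Congo Red, was hybridised to 12 Affymetrix Yeast Genome 2.0 arrays, a 1-colour platform. The deposited values are log2 signals per probe set, which the authors made with RMA, per the submitters' processing notes. In its usual form RMA corrects background, quantile normalizes and summarises probes, so that a shift of most transcripts together would be reduced. Not given in the sources used here is the genome build. Precision is limited by having few arrays.

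Of 5739 probe sets, 5498 had 1 gene symbol in the platform annotation, 0 had several and 241 had none, and 12 symbols were updated through the RefSeq gene table (assembly R64). For 47 genes with several probe sets the one with the highest mean over all arrays was used, which left 5449 genes. The deposited values were tested with limma 3.58.1 (R 4.3.3), with 4 group means in 1 fit (8 residual degrees of freedom), and p-values were adjusted by Benjamini-Hochberg over all 5449 genes in each of 5 comparisons. The threshold was an adjusted p of 0.05. Intervals are 95% intervals of the fit.

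The design text gives each biological sample an array with and an array without drug, and the titles number the samples. Over all genes, deviations from the group means of same-numbered arrays had a Pearson r of 0.616, 0.732 and 0.668 for pat1 samples 1, 2 and 3 and of 0.648, 0.801 and 0.782 for those of wild type. Responses to Congo Red were therefore also fitted with the sample as a replicate block (4 residual degrees of freedom), and all comparisons with a random block (correlation 0.631). That correlation is a single value for all genes. The share of within-group variation between samples had a median of 81.6% over all genes. It was higher for all members but HSP42 (73.4%) and MSN2 (58.7%). For the members above the median the random block can give SEs too small for strain differences and too large for responses. The labels call the samples biological, without naming separate cultures or clones, so p-values measure at most the spread between these samples. The fit with group means alone counts the paired arrays of a sample as independent. Its 8 residual degrees of freedom therefore overstate the independent samples behind a strain difference.

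The members and gene lists were chosen with earlier results of these data known, so the lists serve as description. Genes named outside the members were those of the lists past the threshold with the largest values, or the largest values of a list where none passed, and the 10 or 5 genes most like a profile by Pearson's r. The fit was tested on simulated data. Python 3.11.15, pandas 2.3.3 and matplotlib 3.10.9 made the summaries and plots. No sequence is shown.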

Additional observations from a re-analysis of the deposited data

How the results depend on the processing

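The 45 member results (9 genes in 5 comparisons) were recomputed under other settings, giving 1173 values. Of these 1069 kept their sign and their side of the threshold, 25 were newly past it, 19 were no longer past it, and 60 changed sign, in 18 results whose reported sizes were at most 0.67. With the replicate block, members past the threshold in response to Congo Red numbered 2 in wild type and 2 in pat1. They numbered 0 in each with group means alone and 0 in each with the random replicate block, which has the limit given above. The replicate block changed no call in the difference between responses. Strain differences could not be fitted within fixed blocks.

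For pat1 against wild type without drug, 2 members passed in the reported fit, as did 351 of all genes. The number was 1 after quantile normalization (372 of all genes) and 0 without moderation (284 of all genes). It was 0 with only the groups compared (24 of all genes) and 7 with array weights (889 of all genes). It was 1 without pat1 sample 3 (107 of all genes) and 0 without the arrays with URA3 signal (89). Without both wild type sample 2 and pat1 sample 3 it was 6 (169 of all genes). With the dimmest 25% of genes left out it was 0 of the 6 members then tested. CTT1, SOL4 and SPG4 were among the genes left out, so the 2 members that passed could not be counted there. With single arrays left out the number ran from 0 to 4. With Congo Red it was 0 in the reported fit (351 of all genes) and 1 with the random block (290). It was 2 with array weights (820 of all genes) and 4 without both samples (113). The last setting was chosen after seeing the data. The cause of these changes was not tested.

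Sign changes in wild type with Congo Red were as follows. CTT1 was -0.034 after quantile normalization and MSN2 was 0.0099 after cyclic loess. HSP26 was 0.22 and SOL4 0.048 with array weights, and HSP26 was 0.12 and SOL4 0.025 without wild type sample 2, alone or with pat1 sample 3. Without the arrays with URA3 signal MSN2 was 0.0017, CTT1 -0.12, HSP12 -0.19, HSP42 -0.0063 and SPG4 -0.028. In pat1 MSN4 was -0.011 with centred arrays, -0.024 after quantile normalization, -0.029 after cyclic loess, -0.14 with array weights and -0.20 without the arrays with URA3 signal. Without drug the strain difference of HSP42 was -0.15 with array weights and -0.36 without those arrays. The difference in response of MSN2 was 0.011 without wild type sample 2.

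With single arrays left out, the wild type response ran from -0.12 to 0.27 for CTT1, -0.81 to 0.38 for DDR2, -0.19 to 1.85 for HSP12, -0.50 to 0.58 for HSP26, -0.077 to 0.086 for HSP42, -0.10 to 0.031 for MSN2, -0.52 to 0.37 for SOL4 and -0.028 to 0.62 for SPG4. The pat1 response ran from -0.77 to 0.42 for HSP12, -1.05 to 0.26 for HSP26, -0.14 to 0.088 for MSN2, -0.33 to 0.42 for MSN4 and -1.02 to 0.022 for SOL4. The difference in response ran from -1.20 to 0.25 for DDR2, -1.01 to 0.30 for HSP26, -0.11 to 0.11 for MSN2 and -0.85 to 0.20 for SOL4. The strain difference of HSP42 without drug ran from -0.36 to 0.31. With 3 arrays per group, the widest members, HSP12, HSP26 and DDR2, had SEs of 0.73 to 1.01 in the 4 unpaired comparisons between groups, which limits how small a difference could pass.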

Other observations

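Across the 55 other general stress genes, 54 had a lower response to Congo Red in pat1 than in wild type, with a median of -0.348 against 0.058 over all genes, and none passed the limma test of that difference (130 of all 5449 genes had an unadjusted p under 0.05). The lowest value was -1.17 for TMA10, and AMS1, which encodes vacuolar alpha-mannosidase, was at -0.90. PRB1, the vacuolar protease B, rose by 1.29 ± 0.12 with Congo Red in wild type and had 0.54 ± 0.12 in pat1. The difference of -0.76 ± 0.17 had a limma adjusted p of 0.752, and of 0.153 with the replicate block.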
